A study of Capra hircus with 20 samples.

Results

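The genes described here are 10 chaperones and folding enzymes of the endoplasmic reticulum, HSPA5, HSP90B1, HYOU1, DNAJB11, SDF2L1, PDIA3, PDIA4, PDIA6, CALR and CANX. They were chosen by name, as members of this family, with earlier results of these data known, and all 10 were found among the 21071 genes of the FPKM table by their NCBI gene identifier. All 10 passed the filter on low values (at least 0.1 FPKM in at least 5 libraries), as did 16771 genes in all. FPKM is the number of fragments of a gene scaled to the length of its exons and to the mapped fragments in each library, so that levels of different genes may be compared per length.

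RNA was isolated from the hypothalamus of 20 healthy female Jining grey goats kept under the same feeding and management and grouped by age. The groups were D1 (age 1 day), M2 (60 days), M4 (120 days) and M6 (180 days), with 5 goats and 5 strand-specific, rRNA-depleted libraries per stage. Each library came from 1 goat, and no goat was treated or genetically altered. The comparison asks which genes change in the hypothalamus over postnatal development.

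Proteins that enter the secretory pathway are folded in the lumen of the endoplasmic reticulum. HSPA5 (BiP) binds unfolded chains in an ATP-driven cycle, which DNAJB11 starts by delivering substrates and HYOU1 resets by exchanging the nucleotide, while SDF2L1 is a partner of DNAJB11. HSP90B1 (endoplasmin) is the HSP90 family member of this compartment, CALR and CANX are lectins that hold glycoproteins bearing a trimmed N-glycan, and PDIA3, PDIA4 and PDIA6 form and rearrange disulfide bonds. The unfolded protein response raises the transcription of these genes, mainly through the transcription factors ATF6 and XBP1. Neurons of the hypothalamus that secrete peptide hormones and oligodendrocytes that build myelin both pass large amounts of protein through the endoplasmic reticulum.

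In the goat ARS1.2 assembly, HSPA5 lies at chr11:95624833-95629167, HSP90B1 at chr5:66288024-66306511, HYOU1 at chr15:52696218-52716786, DNAJB11 at chr1:80303639-80323058 and SDF2L1 on an unplaced scaffold. PDIA3 lies at chr21:54881395-54900908, PDIA4 at chr4:8465509-8483328 and PDIA6 at chr11:86459667-86482730. CALR, at chr7:97992275-97996125, and CANX, at chr7:107166934-107198369, share a chromosome without being neighbours. All 10 are annotated as protein-coding genes. Of the 10 genes, 3 overlap another annotated gene, namely DNAJB11 with TBCCD1 over 3273 bp, PDIA3 with CATSPER2 over 458 bp and PDIA6 with ATP6V1C2 over 56 bp and with a lncRNA gene over 1189 bp. The mean FPKM of these protein-coding neighbours was 9.43 for TBCCD1, 2.12 for CATSPER2 and 1.17 for ATP6V1C2, and whether strand was used in calculating FPKM is not given in the sources used here.

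The libraries were uneven in ways that touch the values below. Summed FPKM ranged from 260199 to 377479, the number of reads behind a value could not be recovered, and markers of single cell types varied over wide ranges. The summed FPKM of the 10 oligodendrocyte markers ranged from 513 in M4 replicate 1 to 16816 in M6 replicate 3, and that of the 9 neuron markers from 81.2 in M6 replicate 3 to 2773 in M4 replicate 1, with no marker of either list at 0 in any library. Hypothalamic markers also varied widely between libraries. The summed FPKM of the 20 peptide genes ranged from 11.8 in M4 replicate 3 to 1081 in M6 replicate 4. That of the 15 transcription factor genes ranged from 4.27 in M4 replicate 5 to 41.5 in M6 replicate 4. Of the peptide genes, 0 were at 0 in D1 replicate 3 and 9 in M6 replicate 3. Over all libraries, 13 of the 20 peptide genes and 13 of the 15 transcription factor genes were listed at 0 in some library. OXT exceeded 1 FPKM in 8 libraries and NKX2-1 in 7, while RAX, NR5A1 and TBX3 did not reach 1 FPKM in any. In bulk tissue such as this, fewer cells of a type and less RNA per cell cannot be told apart.

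The chaperone genes were expressed in every library. HSPA5 had the highest mean level over the 20 libraries, 215 ± 64.8 FPKM (SD, n = 20), and ranked 159 among all genes. CANX followed with 160.1 ± 32.7 FPKM and HSP90B1 with 130.1 ± 49.3 FPKM. The next tier was formed by CALR with 49.5 ± 10.2, PDIA3 with 48.0 ± 8.57 and PDIA6 with 32.4 ± 6.27 FPKM. Lower still were DNAJB11 with 14.0 ± 4.64, PDIA4 with 11.6 ± 2.32 and HYOU1 with 9.57 ± 2.15 FPKM, and SDF2L1 was the lowest with 2.38 ± 1.37 FPKM. HSPA5 thus lay far above DNAJB11, HYOU1 and SDF2L1, the co-chaperones that serve its cycle.

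Neighbouring genes in this order were compared within each library, with 100000 random sign changes of the log2 ratios (permutation test, two-sided, adjusted over the 9 pairs). The order itself was taken from the means of the same libraries. The p-values of this test therefore describe how regularly it held within libraries and are no independent support for it. HSPA5 exceeded CANX in 17 of 20 libraries, by 1.303-fold on average (permutation test, adjusted p = 0.00039). CANX exceeded HSP90B1 in 17 of 20 libraries, by 1.27-fold (permutation test, adjusted p = 0.00057). The glycoprotein lectin CALR and its partner enzyme PDIA3 could not be ordered, since CALR was the higher in 12 of 20 libraries (1.02-fold, permutation test, adjusted p = 0.482). DNAJB11 and PDIA4 could not be ordered either, with DNAJB11 the higher in 12 of 20 (1.16-fold, permutation test, adjusted p = 0.122). For each of the other 5 pairs the upper gene was higher in 18 to 20 of 20 libraries, with adjusted p from 3e-05 to 0.00032 in the permutation test, and the order was the same with medians in place of means.

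**Figure D1:**
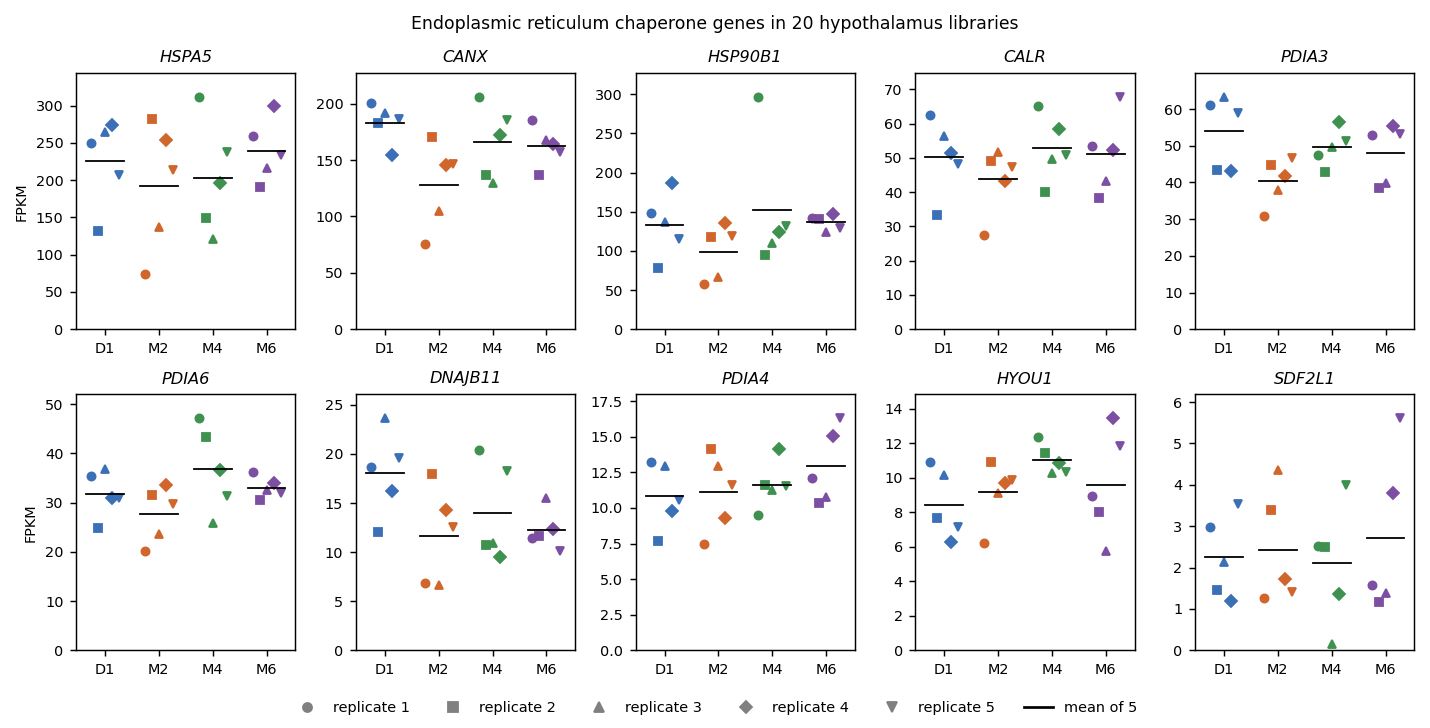
FPKM (y axis, linear and from 0, a separate scale per gene) of the 10 chaperone genes at D1, M2, M4 and M6, in order of mean level. Each point is 1 library, its shape gives the replicate number and the black line is the mean of 5. The ranges of all stages overlap for every gene (the share over all genes tested was not calculated). M2 replicate 1 lies at or near the bottom in most panels, and HSP90B1 has 1 high library at M4 (297 FPKM).

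Between stages, 0 of the 10 genes were called by limma in the 6 comparisons. A call needed a Benjamini-Hochberg adjusted p under 0.05 over all 16771 genes tested and a log2 fold change (log2FC) of at least 1 in size. Few genes of any kind were called, so this count says little about the chaperones in particular. Of all genes tested, 0.0537% (9 genes) were called in M4 vs. D1 and 0.00596% (1 gene) in M6 vs. D1, while each of M6 vs. M4, M6 vs. M2, M4 vs. M2 and M2 vs. D1 had 0.0%. The mean of the later stages against D1 gave 10 called genes (0.0596%) and the F test over the 4 stages gave 1 gene (0.00596%), again with 0 of the 10 chaperone genes. The smallest adjusted p of a chaperone gene was 0.222 in the 6 comparisons and 0.505 in the F test. At an unadjusted p under 0.05, 4 of the 60 values (10 genes in 6 comparisons) passed, CANX, DNAJB11 and PDIA3 in M2 vs. D1 and PDIA6 in M4 vs. M2. Over all genes tested, 8.9% of the values of the same 6 comparisons passed (for D1 against M2, M4 and M6 these were 15.6%, 8.71% and 7.41%, for M2 against M4 and M6 8.68% and 6.14%, and for M4 against M6 6.87%), so the share of the chaperone genes was no higher than the background. The estimates were small beside the choices of the fit, since 33 of the 60 had the opposite sign in at least 1 of the other fits, among them HSPA5 and CALR in M6 vs. D1 and CALR in M4 vs. D1.

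The sizes that these data allow were smaller for the other 9 genes than for SDF2L1. For HSPA5, HSP90B1, DNAJB11 and CANX they still passed 1 log2 unit in at least 1 comparison. The log2FC was under 0.5 in absolute value in 54 of the 60 values, and the largest was 0.70, that of DNAJB11 in M2 vs. D1. The 95% interval lay wholly within 1 log2 unit of no change in 46 of the 60 values, and all 46 belong to the 54 values of the 9 genes other than SDF2L1. Over those 54 values the intervals reached from -1.28 to 1.19. For all 10 genes and all 6 comparisons, the ranges of the 5 libraries of both stages overlapped. The share of all genes tested whose ranges overlap was not calculated, so this count has no background beside it and says little about these genes.

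**Figure D2:**
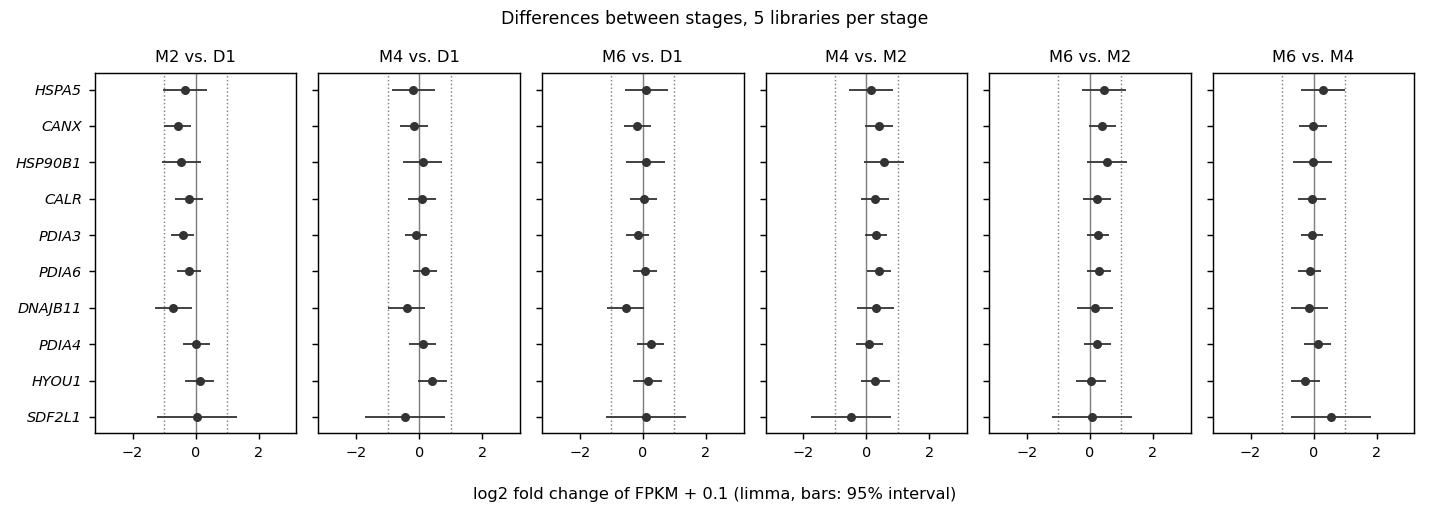
Log2 fold change (log2FC) of FPKM + 0.1 (x axis) of the 10 chaperone genes (rows) in the 6 comparisons between stages, from a single limma fit of the 20 libraries. Points are estimates, bars their 95% interval and dotted lines a log2FC of -1 and 1. Most intervals lie between the dotted lines, those of SDF2L1 are the widest, and in M2 vs. D1 the intervals of CANX, DNAJB11 and PDIA3 lie below 0 before adjustment.

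HSPA5, the central chaperone of the compartment, was measured at 250.5, 132, 265, 273 and 206 FPKM in D1 replicates 1 to 5 and at 73.7, 282, 137, 254 and 213 FPKM in those of M2. It was measured at 312, 149, 121, 197 and 238 FPKM in M4 and at 259, 191, 216, 299 and 233 FPKM in M6. The level spanned 4.24-fold over all libraries, and each of D1, M2 and M4 held both low and high goats, whereas the M6 libraries lay closer together. Stage means were 225 ± 58.3 (D1), 192 ± 85.8 (M2), 203 ± 75.6 (M4) and 239.6 ± 41.5 (M6) (SD, n = 5 each). The log2FC was -0.34 (SE 0.33, limma adjusted p = 0.654) in M2 vs. D1 and 0.12 (SE 0.33, limma adjusted p = 0.934) in M6 vs. D1. In M2 vs. D1 its sign was not stable, being 0.19 without M2 replicates 1 and 3, 0.39 with the mapping rate as a covariate and 0.02 after quantile normalization.

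The HSP90 family chaperone HSP90B1 was at 148, 78.7, 137, 186 and 116 FPKM in D1 and at 57.4, 117, 66.6, 135 and 119 FPKM in M2. It was at 297, 94.3, 110.3, 124 and 132 FPKM in M4 and at 141, 140.4, 125, 147 and 129 FPKM in M6. One M4 library, replicate 1, lay far above all others, while the 5 M6 libraries lay close together, with a mean of 136 ± 9.18 (SD, n = 5) against 152 ± 82.6 at M4. The difference between M4 and M2, a log2FC of 0.56 (SE 0.30, limma adjusted p = 0.590), fell to 0.29 without M4 replicate 1. In M2 vs. D1 the log2FC was -0.45 (SE 0.30, limma adjusted p = 0.470), and it was -0.05 without M2 replicates 1 and 3.

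Among the partners of HSPA5, the J-domain protein gene DNAJB11 showed the largest difference of the 10 genes. It was at 18.6, 11.999, 23.7, 16.3 and 19.6 FPKM in D1 and at 6.81, 17.9, 6.67, 14.3 and 12.5 FPKM in M2. It was at 20.4, 10.8, 10.96, 9.53 and 18.3 FPKM in M4 and at 11.4, 11.6, 15.5, 12.3 and 10.2 FPKM in M6. Most D1 libraries were high, the lowest 2 values of all came from M2 replicates 3 and 1, and every later stage overlapped D1. The log2FC was -0.70 (SE 0.28, limma unadjusted p = 0.0212, adjusted p = 0.247) in M2 vs. D1, -0.40 (SE 0.28, limma adjusted p = 0.744) in M4 vs. D1 and -0.54 (SE 0.28, limma adjusted p = 0.708) in M6 vs. D1. All 3 comparisons use the same D1 libraries. The mean of the 3 later stages differed from that of D1 by a log2FC of -0.55 (SE 0.23, limma unadjusted p = 0.0269, adjusted p = 0.361), where 11.7% of all genes tested had an unadjusted p under 0.05. That value was -0.40 without M2 replicates 1 and 3, -0.24 with the mapping rate as a covariate, and came closest to the threshold when limma weighted libraries by quality (adjusted p = 0.0868).

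HYOU1, the exchange factor of HSPA5, was at 10.9, 7.65, 10.2, 6.26 and 7.14 FPKM in D1 and at 6.22, 10.9, 9.14, 9.71 and 9.87 FPKM in M2. It was at 12.3, 11.4, 10.3, 10.9 and 10.3 FPKM in M4 and at 8.94, 8.01, 5.76, 13.5 and 11.8 FPKM in M6. The M4 libraries lay close together at 11.1 ± 0.856 (SD, n = 5), whereas M6 held both the lowest value of the 20, in replicate 3, and the highest, in replicate 4. Its log2FC was positive in each comparison with D1, at 0.13 (limma adjusted p = 0.816) in M2, 0.42 (SE 0.22, limma adjusted p = 0.625) in M4 and 0.16 (limma adjusted p = 0.882) in M6. The estimate in M4 vs. D1 stayed above 0 in every alternative, from 0.29 with library quality weights to 0.72 with the mapping rate as a covariate.

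SDF2L1, the partner of DNAJB11, was the most variable of the 10 genes. It was at 2.99, 1.46, 2.14, 1.199 and 3.55 FPKM in D1 and at 1.26, 3.40, 4.35, 1.72 and 1.40 FPKM in M2. It was at 2.52, 2.50, 0.163, 1.35 and 3.99 FPKM in M4 and at 1.59, 1.16, 1.39, 3.80 and 5.62 FPKM in M6. The value in M4 replicate 3 was far below all others, and the lowest and the highest library differed by 34.6-fold. The within-stage SD of its log2 level was 1.04, so an effect of 1 log2 unit was not detectable for it, as the interval in M2 vs. D1, from -1.24 to 1.31, shows.

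CANX, the membrane-bound lectin chaperone, was at 200.2, 183, 192, 154 and 187 FPKM in D1 and at 75.3, 170.3, 105, 145 and 146 FPKM in M2. It was at 206, 136, 129.9, 172 and 186 FPKM in M4 and at 186, 137, 168, 164 and 158 FPKM in M6. Most M2 libraries lay below all D1 libraries, although M2 replicate 2 lay above D1 replicate 4. The log2FC in M2 vs. D1 was -0.57 (SE 0.21, limma unadjusted p = 0.0135, adjusted p = 0.222), the smallest adjusted p among the 60 values. Without M2 replicates 1 and 3 it was -0.25. Against M2, its log2FC was 0.41 in M4 (SE 0.21, limma adjusted p = 0.585) and 0.39 in M6 (SE 0.21, limma adjusted p = 0.746).

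CALR, the soluble lectin, was at 62.4, 33.3, 56.5, 51.3 and 48.1 FPKM in D1 and at 27.4, 48.96, 51.7, 43.1 and 47.5 FPKM in M2. It was at 65.04, 40.2, 49.7, 58.4 and 50.8 FPKM in M4 and at 53.6, 38.2, 43.3, 52.3 and 67.9 FPKM in M6. M2 replicate 1 was the lowest of the 20, the other M2 libraries lay between 43.1 and 51.7 FPKM, and each of the other stages reached both below and above these. The log2FCs against D1 were -0.21 in M2, 0.08 in M4 and 0.02 in M6 (SE 0.21 each, limma adjusted p = 0.672, 0.949 and 0.984).

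PDIA3, the oxidoreductase that works with both lectins, was at 61.2, 43.3, 63.4, 43.2 and 58.9 FPKM in D1 and at 30.95, 44.7, 37.97, 41.7 and 46.7 FPKM in M2. It was at 47.4, 42.95, 49.6, 56.4 and 51.4 FPKM in M4 and at 53.1, 38.5, 39.8, 55.5 and 53.1 FPKM in M6. D1 replicates 2 and 4 lay well below the other D1 libraries, and of the M2 libraries replicates 2 and 5 lay above them and the rest below. The within-stage SD of the log2 level, 0.233, was the smallest of the 10 genes. The log2FC in M2 vs. D1 was -0.41 (SE 0.17, limma unadjusted p = 0.0242, adjusted p = 0.255), and it was -0.26 without M2 replicates 1 and 3.

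Neither of the disulfide isomerase genes PDIA4 and PDIA6 was called between stages. PDIA4 was at 13.2, 7.68, 12.9, 9.82 and 10.6 FPKM in D1, 7.45, 14.1, 12.9, 9.33 and 11.6 in M2, 9.54, 11.6, 11.3, 14.1 and 11.5 in M4 and 12.1, 10.3, 10.8, 15.1 and 16.3 in M6. Its estimate in M2 vs. D1 was 0.02, with a 95% interval from -0.40 to 0.45, and its largest was 0.26 in M6 vs. D1 (SE 0.21, limma adjusted p = 0.777). PDIA6 was at 35.5, 24.9, 36.9, 30.9 and 30.9 FPKM in D1, 20.1, 31.5, 23.6, 33.6 and 29.8 in M2, 47.3, 43.3, 25.96, 36.6 and 31.4 in M4 and 36.3, 30.6, 32.5, 33.98 and 31.9 in M6. M4 replicates 1 and 2 gave its highest values, and the log2FC in M4 vs. M2 was 0.40 (SE 0.18, limma unadjusted p = 0.0374, adjusted p = 0.562). In that comparison 8.68% of all genes tested had an unadjusted p under 0.05, against 1 of the 10 chaperone genes.

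The mean summed level of the 10 genes was lowest at M2, although none was called. In M2 vs. D1, 7 of the 10 estimates were below 0, with a median log2FC of -0.27 against -0.07 over all genes tested. In M4 vs. M2, 9 of 10 were above 0 (median 0.29, against -0.02 over all genes tested), and in M6 vs. M2 all 10 were (median 0.24, against 0.02), and these 3 comparisons share the M2 libraries. At an unadjusted p under 0.05 in limma, 3 of the 10 genes passed in M2 vs. D1, where 15.6% of all genes tested did. In M4 vs. M2 it was 1 of 10 (8.68% of all genes tested), and in M6 vs. M2 0 of 10 (6.14%). The summed FPKM of the 10 genes was 718 ± 118 in D1, 566 ± 181 in M2, 699 ± 201 in M4 and 708 ± 77.1 in M6 (SD, n = 5 each). The lowest M2 libraries were replicate 1 with a summed FPKM of 306.6 and replicate 3 with 454.6, while the other M2 libraries lay between 637 and 741. These 2 libraries were left out after their values were seen, which raises the M2 sum by construction, and the values without them are a description. Without them, 6 of the 10 estimates of M2 vs. D1 were below 0, and the median was -0.05 against -0.04 over all genes tested. None of the chaperone genes, 0 of 10, then had an unadjusted p under 0.05, as 4.66% of all genes tested did. With the mapping rate as a covariate the median was 0.10, against 0.04 over all genes tested.

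M2 replicate 1 gave the lowest value of 7 of the 10 genes and lay below the mean of each of the 10. Its median deviation from the genes' own means was -0.74 on the log2 scale, against -0.03 for all genes tested and -0.25 for the 8419 genes with a mean of at least 5 FPKM. In the same library the median deviation was -1.01 for the 33 cytosolic and mitochondrial chaperones, -0.40 for 46 other folding genes of the endoplasmic reticulum and -1.26 for the 9 neuron markers and -1.15 for the 10 oligodendrocyte markers, but 0.96 for the 9 microglia markers and 0.84 for the 8 endothelial markers. The summed FPKM of the neuron markers was 252.9 in this library, within a range of 253 to 1288 at M2 and of 855 to 1547 at D1, and that of the microglia markers was 289 within a range of 104 to 289 at M2 and of 91.0 to 165 at D1. The oligodendrocyte markers summed to 2778 FPKM in this library, within 2778 to 8088 at M2 and 1084 to 16332 at D1, and the endothelial markers to 103.7 FPKM, within 44.5 to 148 at M2 and 48.2 to 98.6 at D1. None of the neuron, microglia, oligodendrocyte and endothelial markers was at 0 in any library. The remaining marker lists had median deviations in this library of 0.09 (astrocyte), 0.05 (choroid plexus), 0.31 (ependymal), -0.10 (meningeal and fibroblast) and -1.15 (pituitary, 3 genes). The median deviation was 1.03 for 13 hypothalamic transcription factors and 0.20 for 18 hypothalamic peptide genes. The part of any of these lists in the low chaperone levels was not tested. M2 replicate 3 had a median deviation of -0.37, close to the -0.35 of the genes with a mean of at least 5 FPKM, and a single gene, KLHDC1, held 23.9% of its summed FPKM.

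Other libraries stood apart for the chaperone genes in different ways. M4 replicate 1 gave the highest value of 4 of the 10 genes, with a median deviation of 0.41, while its median deviation was 0.41 for the cytosolic and mitochondrial chaperones, 0.06 for the other folding genes, 1.00 for the neuron markers and -3.17 for the oligodendrocyte markers. D1 replicate 2 lay below the mean for 9 of the 10 genes, with a median deviation of -0.38, whereas the other folding genes (-0.01) and the cytosolic and mitochondrial chaperones (-0.04) stayed near their means. In M6 replicate 3 the neuron markers deviated by -3.59, and the 10 chaperone genes had a median deviation of -0.03. In this library 5 of the 10 genes lay below their mean, with deviations from -0.69 to 0.23, and HYOU1 had its lowest value of the 20. The part of the neuron markers in these values was not tested.

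**Figure D3:**
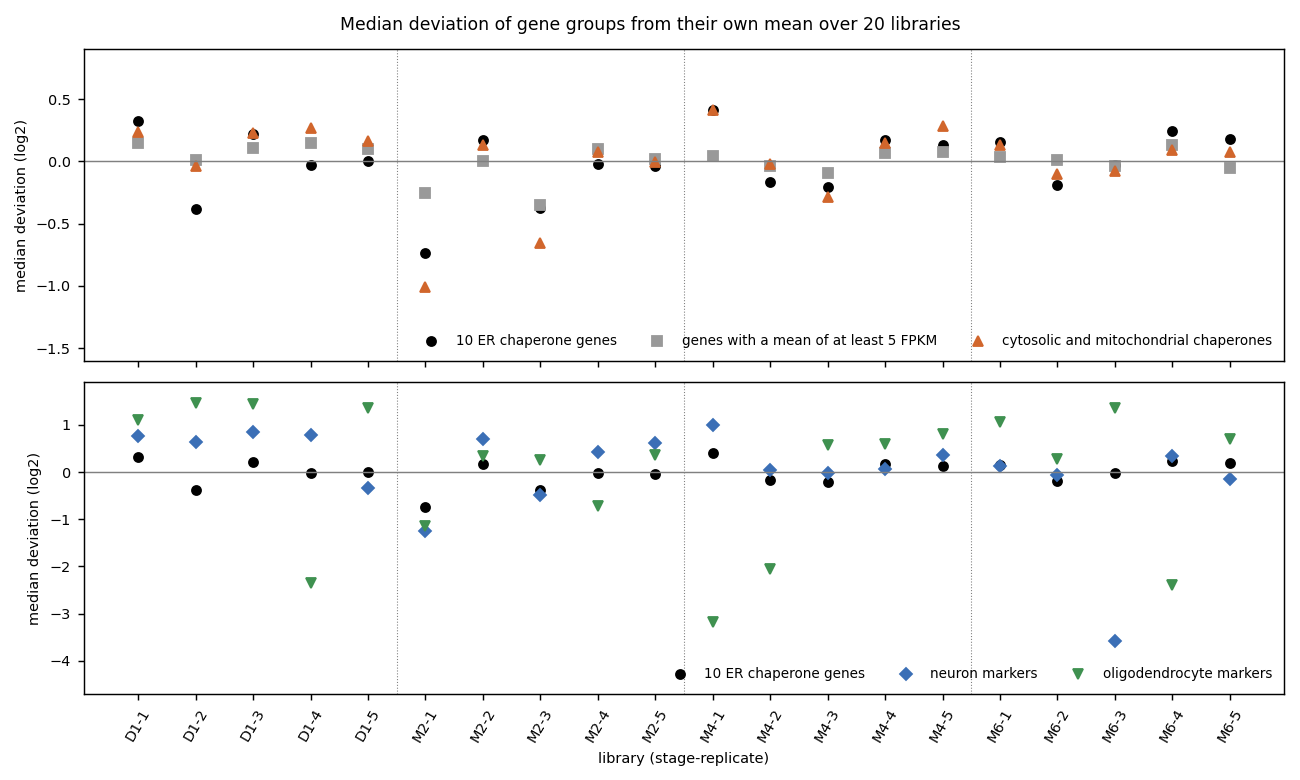
Median deviation (y axis, log2) of gene groups from the genes' own means over the 20 libraries (x axis, stage and replicate). Upper panel, the 10 chaperone genes, all genes with a mean of at least 5 FPKM, and the cytosolic and mitochondrial chaperones. Lower panel, on a wider scale, the 10 chaperone genes with the neuron and oligodendrocyte markers. M2 replicate 1 is lowest for both groups of chaperones, and the marker lists spread much more widely than the chaperone genes.

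The spread between goats of the same age differed among the chaperone genes and is given without a test. The median within-stage SD on the log2 scale was 0.331 for the 10 genes, 0.568 for all genes tested and 0.427 for the genes with a mean of at least 5 FPKM, and 6 of the 10 genes lay below the last value, close to the share that a median sets. These were PDIA3 (0.233), PDIA6 (0.262), CANX (0.297), PDIA4 (0.301), CALR (0.326) and HYOU1 (0.336). DNAJB11 (0.457), HSP90B1 (0.487), HSPA5 (0.542) and SDF2L1 (1.04) varied more. The most abundant chaperone, HSPA5, was thus among the more variable, and its share of the summed FPKM of the 10 genes ranged from 23.3% to 38.1% over the libraries, with a mean of 31.4%.

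The chaperone genes varied together over the goats. Over the 20 libraries Pearson's r of log2(FPKM + 0.1) was above 0 for all 45 pairs, with a median of 0.526 (range 0.0586 to 0.835), and Spearman's rho had a median of 0.486 (range -0.14 to 0.802). With 100000 permutations of the library labels and adjustment over the 45 pairs, 25 pairs had an adjusted p under 0.05 by Pearson's r and 22 by Spearman's rho. After the stage means were subtracted the median r was 0.504 (range 0.123 to 0.863), with 25 pairs under 0.05. Much of this rested on 1 goat, because without M2 replicate 1 the median r was 0.401, r was above 0 for 40 of the 45 pairs and 9 pairs had an adjusted p under 0.05. Leaving out any of the other 19 libraries gave 23 to 29 pairs. The points share the scaling of each library, and with each library scaled to the same summed FPKM the median r was 0.501. How many pairs of other genes pass the same threshold was not calculated, so these counts have no background beside them.

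The closest pair was HSPA5 and HSP90B1, with r = 0.835 and rho = 0.802 (permutation test, adjusted p = 0.00045 and 0.0018). Its r was 0.863 with stage means subtracted, 0.824 without the 2 libraries farthest from the median of HSPA5 (M2 replicate 1 and M4 replicate 3) and 0.770 without M2 replicate 1 alone. DNAJB11 and CANX had r = 0.785 and rho = 0.726 (permutation test, adjusted p = 0.000675 and 0.00742), with r = 0.739 without the 2 libraries farthest from the median of DNAJB11. HSPA5 and CANX had r = 0.779 and rho = 0.574 (permutation test, adjusted p = 0.0018 and 0.0369), but r = 0.528 without the 2 farthest libraries. PDIA3 and CALR, which act together on glycoproteins, had r = 0.733 and rho = 0.686 (permutation test, adjusted p = 0.0018 and 0.0134), with r = 0.598 without the 2 farthest libraries.

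For some pairs no relation was found, or it depended on the measure. DNAJB11 and PDIA4 had r = 0.0586 and rho = -0.14 (permutation test, adjusted p = 0.806 and 0.594), and HSP90B1 and SDF2L1 had r = 0.0646 and rho = 0.0421 (permutation test, adjusted p = 0.791 and 0.860). None of the 9 pairs with SDF2L1 had an adjusted p under 0.05 by Pearson's r as measured, but by Spearman's rho HYOU1 and SDF2L1 (rho = 0.522, permutation test, adjusted p = 0.0417) and SDF2L1 and PDIA4 (rho = 0.514, permutation test, adjusted p = 0.0453) did, and HYOU1 and SDF2L1 also did with stage means subtracted (r = 0.479, permutation test, adjusted p = 0.0292). HSPA5 and its exchange factor HYOU1 had r = 0.396 and rho = 0.412 (permutation test, adjusted p = 0.123 and 0.118), but r = 0.523 with stage means subtracted (permutation test, adjusted p = 0.0216) and r = 0.276 without the 2 farthest libraries. The 9 pairs that stayed under 0.05 without M2 replicate 1 joined HSPA5 with HSP90B1, DNAJB11 and CANX, HSP90B1 with DNAJB11 and PDIA6, CANX with DNAJB11 and PDIA3, and CALR with PDIA3 and PDIA4.

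**Figure D4:**
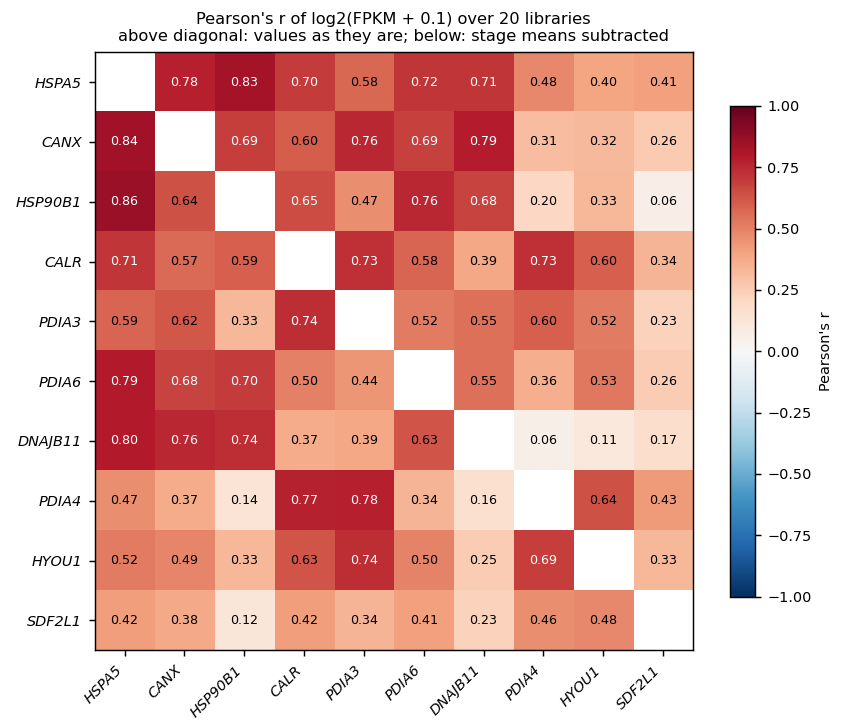
Pearson's r between the 10 chaperone genes over 20 libraries, on log2(FPKM + 0.1), with genes in order of mean level. Above the diagonal the values are as measured, below it the stage means were subtracted, and the colour scale runs from -1 (blue) to 1 (red). All values are above 0, HSPA5 and HSP90B1 are the closest pair (0.83 above the diagonal, 0.86 below), and SDF2L1 and HSP90B1 are among the loosest (0.06 and 0.12).

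With stage means subtracted, the median r of each gene with the other 9 ranged from 0.390 for DNAJB11 to 0.713 for HSPA5. The same median, against the 10 chaperone genes, was 0.146 over the 8410 other genes with a mean of at least 5 FPKM. The 10 other genes whose pattern was most like the mean of the scaled chaperone levels were C11H2orf49 (r = 0.912), CCT4 (0.882), COPA (0.879), HSPA4 (0.868), GOSR2 (0.867), STIP1 (0.861), ALG5 (0.847), SEC11C (0.841), TCP1 (0.838) and CBX1 (0.833). These r are over 20 libraries, were picked as the highest and are given without a test. The mean of the scaled levels was lowest in M2 replicate 1, at -1.83. No r of this paragraph was calculated without that library. Of the genes named, CCT4 and TCP1 encode subunits of the cytosolic chaperonin, HSPA4 and STIP1 cytosolic co-chaperones, COPA and GOSR2 factors of vesicle transport between the endoplasmic reticulum and the Golgi, ALG5 an enzyme of N-glycan precursor synthesis and SEC11C a subunit of the signal peptidase.

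Upstream of the chaperones, the sensors and transcription factors of the unfolded protein response were expressed at 0.525 (CREB3L1) to 51.9 FPKM (ATF4) on average, and 0 of the 12 listed genes were at 0 in any library. ATF6, the sensor that is itself cleaved to a transcription factor, had a mean of 12.7 FPKM, XBP1 of 41.6, EIF2AK3 (PERK) of 10.4 and ERN1, the kinase that splices XBP1, of 5.09 FPKM. Gene-level values do not show whether XBP1 was spliced or ATF6 cleaved. With stage means subtracted, the median r with the 10 chaperone genes over the 20 libraries was 0.599 for XBP1 and 0.571 for ATF6, but -0.432 for ERN1 and -0.338 for EIF2AK3 (given as a description, without a test). The same median was 0.146 over the 8410 other genes with a mean of at least 5 FPKM. The r of the other listed genes is not given here, and none was calculated without M2 replicate 1. In that library the 12 genes had a median deviation of 0.25, against -0.74 for the 10 chaperone genes.

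None of the genes of this pathway was called either. Of 137 genes on 5 lists of other endoplasmic reticulum functions, 134 were tested and 0 had an adjusted p under 0.05 in any comparison. In M2 vs. D1 the median log2FC was -0.28 for 46 other folding genes (at an unadjusted p under 0.05, 1 higher and 7 lower), 0.07 for the 12 sensors and transcription factors (1 higher, 1 lower) and -0.15 for 18 targets of the PERK arm (0 higher, 2 lower). It was -0.35 for 26 genes of endoplasmic reticulum-associated degradation (1 higher, 7 lower), -0.41 for 32 genes of translocation and N-glycosylation (0 higher, 9 lower) and -0.46 for 33 cytosolic and mitochondrial chaperones (0 higher, 13 lower). Over all genes tested the median was -0.07, with 1048 genes higher and 1568 lower (15.6% together), so the shares of the other folding genes, the sensors and the PERK arm (17.4%, 16.7% and 11.1%) were near the background, and those of degradation, translocation and the other chaperones were 30.8%, 28.1% and 39.4%. Without M2 replicates 1 and 3 the same medians were -0.17, -0.06, -0.11, -0.11, -0.14 and -0.12, and 3, 0, 1, 3, 3 and 1 genes had an unadjusted p under 0.05, against a median of -0.04 and 4.66% over all genes tested.

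Single genes of these lists are given by their smallest p in the F test. VIMP, a membrane protein of the degradation machinery, was at 25.6 ± 4.49 FPKM in D1, 15.7 ± 1.39 in M2, 16.2 ± 1.59 in M4 and 18.9 ± 1.37 in M6 (SD, n = 5 each), and its difference between D1 and the later stages, a log2FC of -0.58 (SE 0.12, limma adjusted p = 0.0556), was the closest of all listed genes to the threshold. UBXN4, of the same machinery, had a log2FC of -0.66 in M2 vs. D1 (SE 0.20, limma adjusted p = 0.164). CRELD2 and SERPINH1 (the collagen chaperone) had their lowest means at M4, with log2FCs of -0.89 (SE 0.25, limma adjusted p = 0.460) and -0.99 (SE 0.33, limma adjusted p = 0.499) in M4 vs. M2. Among the transcription factors, ATF4 was at 62.8 ± 9.52 FPKM in D1 and 47.03 ± 4.91 in M2 (log2FC -0.41, SE 0.17, limma adjusted p = 0.264), and MBTPS2, the protease that releases ATF6, had 0.50 in M4 vs. D1 (SE 0.22, limma adjusted p = 0.542). The signal peptidase subunit SPCS1 had -0.69 in M2 vs. D1 (SE 0.19, limma adjusted p = 0.145) and the translocon-associated SSR4 -0.89 in M4 vs. D1 (SE 0.30, limma adjusted p = 0.387). Of the PERK arm, PHGDH had -0.78 in M4 vs. D1 (SE 0.20, limma adjusted p = 0.184) and VLDLR -0.72 in M2 vs. D1 (SE 0.21, limma adjusted p = 0.151), and of the other chaperones the mitochondrial HSPD1 had -0.77 in M2 vs. D1 (SE 0.23, limma adjusted p = 0.164) and DNAJC7 -0.47 (SE 0.17, limma adjusted p = 0.221).

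**Figure D5:**
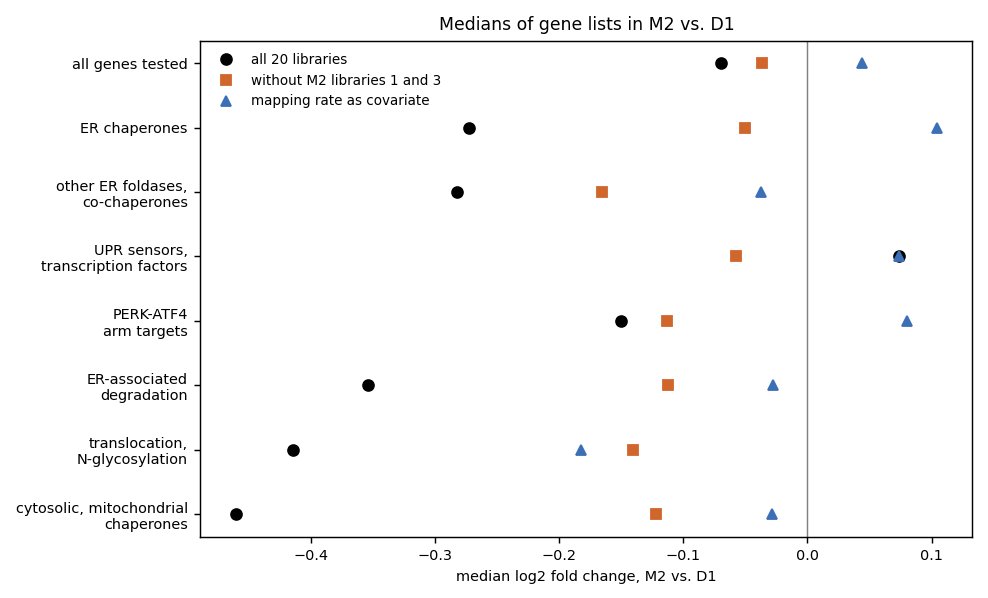
Median log2FC in M2 vs. D1 (x axis) of all genes tested, the 10 chaperone genes and 6 related gene lists (rows), with all 20 libraries (circles), without M2 replicates 1 and 3 (squares) and with the mapping rate as a covariate (triangles). With all libraries 7 of the 8 medians lie below 0, and in both alternatives all 8 lie between -0.18 and 0.10.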

How the data were processed

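The sources give the upstream steps as follows. Reads were trimmed with fastp, aligned to the goat genome (ARS1.2) with HISAT2 2.0.5 and assembled with StringTie 1.3.3b, and the authors calculated and deposited FPKM per gene for each of the 20 libraries. Only 11.8% of 1287 ratios of low values were within 0.05 of a whole number, so whole reads could not be derived from the values, and the spread between libraries carries the precision. The mapped read counts in the study's quality table were used only for these ratios, and its mapping rates only as a covariate. Gene identifiers were matched to symbols with RefSeq (20610 of 21071 matched). The 16771 genes that reached 0.1 FPKM in 5 or more libraries were fitted on log2(FPKM + 0.1), which understates the changes of low genes, with limma 3.58.1 in R 4.3.3, with 4 stages as groups, a variance trend and Benjamini-Hochberg adjustment over all genes tested. Calls required an adjusted p below 0.05 and, except in the F test, a log2 fold change of 1 or more in either direction. The fit was tested on simulated data. Other steps and figures used Python 3.11.15 with numpy 2.4.6, pandas 2.3.3, scipy 1.17.1 and matplotlib 3.10.9. The limma p-values set differences between stages against the spread between the goats sampled. Those of the order of levels come from sign changes of ratios within libraries. Those of the correlations come from permuting library labels, within stages where the stage means were subtracted.

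The chaperone genes and gene lists were chosen with earlier results of these data known. Named genes were the 10 chaperone genes, the 10 genes most like their mean, and from each list the genes called or otherwise the 2 with the smallest F test p. Marker list genes chosen that way were not described singly. Promoter and protein sequences were not analysed here. Alternatives were another pseudocount, 2 other filters, 3 other scalings, fits of only the 10 libraries compared, without a trend, with library quality weights, with the replicate number as a block or with the mapping rate as a covariate, leaving out each library in turn, and a call by adjusted p without a fold limit. Leaving out M2 replicates 1 and 3 together, and leaving out each library from the correlations, were added after the data were seen.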

Additional observations from a re-analysis of the deposited data

Results flagged for a closer look

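HSP90B1 in M4 replicate 1 was flagged because its level lay far from the other libraries of its stage. It was 297 FPKM, against 132 FPKM in the nearest of the other M4 libraries and 94.3 FPKM in the lowest, so that the gap to the nearest took up 0.813 of the whole range. This was the single flag among 40 groups of 5 libraries (10 genes in 4 stages), and chance flags about 1 group in 20. In the same library HSPA5, CANX and PDIA6 also had their highest value of the 20, the summed FPKM of the neuron markers was 2773, the highest of all libraries, and that of the oligodendrocyte markers was 513, the lowest. The part of these markers in the value was not tested.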

How the results depend on the processing

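The count of 0 chaperone genes called held in every comparison under all 32 other fits (limma, 20 of them leaving out 1 library) and with the adjusted p alone. Library quality weights raised the calls among all genes in M2 vs. D1 from 0 to 148 and in later stages vs. D1 from 10 to 223, still with 0 of the 10. Of the 60 estimates (10 genes in 6 comparisons), 27 kept their sign in every fit and 33 did not. HSPA5 in M6 vs. D1 ranged from -0.063 to 0.62, CALR from -0.059 to 0.29 in M4 vs. D1 and from -0.12 to 0.23 in M6 vs. D1. For 14 estimates followed singly, the 10 of M2 vs. D1 and 4 others, 426 of 447 values kept their sign and their side of the threshold and 21 changed sign, all in M2 vs. D1. With the mapping rate as a covariate, the log2FC in M2 vs. D1 was 0.39 for HSPA5, 0.12 for HSP90B1, 0.087 for PDIA6 and 0.091 for CALR. After quantile normalization it was 0.023 for HSPA5, 0.058 for PDIA6, 0.14 for CALR and -0.17 for SDF2L1, and with library quality weights -0.28 for SDF2L1. Without M2 replicates 1 and 3 it was 0.19 for HSPA5, 0.0029 for PDIA6 and -0.048 for SDF2L1. Leaving out 1 library moved it between -0.0915 and 0.158 for PDIA4 and between -0.21 and 0.22 for SDF2L1. The cause was not tested.

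The pairs of chaperone genes with an adjusted p under 0.05 numbered 25, 25 with stage means subtracted, 26 with equal summed FPKM, and 9 to 29 with 1 library left out, where 9 was without M2 replicate 1. Same-numbered libraries of different stages did not deviate together (median r of -0.011 over 30 pairs, range -0.246 to 0.43), so the number was not taken to pair goats, and with it as a block in limma 0 of the 10 genes were called in each comparison, with CANX in M2 vs. D1 at an adjusted p of 0.278. With 5 goats per stage, the 95% intervals reached -1.28 for DNAJB11 in M2 vs. D1 and 1.19 for HSP90B1 in M4 vs. M2. These were the farthest bounds among the 9 genes other than SDF2L1, whose intervals reached further. Changes up to the bounds of each gene may have gone undetected.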
